A study of Mus musculus with 10 samples.

Results

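The genes described here are 9 transcription regulators of the LIM, Sox and Fezf families: Isl1, Lhx2, Lhx9, Lmo4, Sox2, Sox5, Sox6, Fezf1 and Fezf2. They were chosen by name, are 9 of the 27933 genes in the count table, and all 9 were found in it. They were measured by single-cell RNA sequencing (10x Genomics Chromium, 3′ v2 chemistry) of retinal cells from mice at postnatal day 19. The study has 1 group of 10 libraries, 1 from batch 1 (library 1), 5 from batch 2 (libraries 2 to 6) and 4 from batch 3 (libraries 7 to 10), as the labels number the batches. All mice were of 1 transgenic strain that carries Cre and GFP. Per the labels' protocols, the papain-dissociated cells were stained for CD133 and CD73, and living cells without GFP, CD133 or CD73 signal were kept; CD73 marks rods. The labels give neither an age beyond day 19 nor a treatment or a second genotype, and they do not tie libraries to animals. A p-value below therefore reflects how a difference between cells of the same library varied among the libraries used, 10 unless fewer are given. Part of that variation may be technical.

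Amacrine cells are interneurons of the inner retina, and most of them release either GABA or glycine. LIM-homeodomain proteins (Isl1, Lhx2, Lhx9) bind DNA through a homeodomain and recruit partners through LIM domains, of which LDB proteins are the best known. Lmo4 is a LIM-only protein that has the LIM domains without the homeodomain and competes for the same partners. SoxB1 proteins such as Sox2 activate genes of progenitors and of some mature neurons and glia, whereas the SoxD proteins Sox5 and Sox6 lack an activation domain of their own and act through partners. Fezf1 and Fezf2 are zinc-finger repressors that recruit TLE corepressors. Isl1 and Sox2 are known in starburst amacrine cells, the cholinergic cells of the retina that serve direction selectivity, and Isl1 is also known in ON bipolar and ganglion cells. Sox2 is a known gene of Müller glia as well.

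The 9 genes are protein coding in GENCODE M21 (GRCm38, the assembly that mm10 names). The LIM genes are Isl1 (chr13:116298281-116309689, minus strand), Lhx2 (chr2:38339281-38369733, plus), Lhx9 (chr1:138825186-138848577, minus) and Lmo4 (chr3:144188530-144205220, minus). The Sox genes are Sox2 (chr3:34650405-34652461, plus), Sox5 (chr6:143828425-144781977, minus) and Sox6 (chr7:115470872-116038796, minus). Fezf1 lies at chr6:23245044-23248362 (minus) and Fezf2 at chr14:12342094-12348189 (minus). Sox5 overlaps 7 other annotated genes, 5 of them in the count table, Lhx2 overlaps 2, and Sox2 lies inside Sox2ot on the same strand; how reads in such overlaps were assigned is not given in the sources used here.

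Isl1, Sox2 and Fezf1 shared their highest level in the cholinergic cells described below, so sequence upstream of these 3 genes is shown. It comes from RefSeq promoter records on GRCm38.p6, is written 5′ to 3′ on the gene's strand, and holds no base of an exon of the gene in GENCODE M21. The Isl1 and Fezf1 windows end at the gene's GENCODE start, while the Sox2 window ends before it, at the start in the RefSeq record. Capitals mark the CCAAT box, searched as CCAAT and, on the other strand, ATTGG. The Isl1 window is 249 bases long (chr13:116309690-116309938, minus strand), the Sox2 window 250 bases (chr3:34649745-34649994, plus strand) and the Fezf1 window 152 bases (chr6:23248363-23248514, minus strand).
Isl1: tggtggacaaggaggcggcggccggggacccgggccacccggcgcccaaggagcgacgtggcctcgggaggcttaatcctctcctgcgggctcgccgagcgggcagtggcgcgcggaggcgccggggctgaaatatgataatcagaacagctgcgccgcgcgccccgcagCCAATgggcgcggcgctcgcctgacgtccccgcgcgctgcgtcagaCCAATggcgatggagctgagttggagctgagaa
Sox2: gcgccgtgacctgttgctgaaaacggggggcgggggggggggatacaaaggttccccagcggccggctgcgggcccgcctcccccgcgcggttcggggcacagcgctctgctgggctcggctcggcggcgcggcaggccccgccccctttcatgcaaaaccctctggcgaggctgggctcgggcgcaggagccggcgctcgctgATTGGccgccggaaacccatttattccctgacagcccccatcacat
Fezf1: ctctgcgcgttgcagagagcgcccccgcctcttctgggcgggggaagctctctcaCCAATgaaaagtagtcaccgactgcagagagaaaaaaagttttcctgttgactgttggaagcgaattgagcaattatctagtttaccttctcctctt
The Isl1 window holds 2 matches, the Sox2 window 1 and the Fezf1 window 1. Of all 32851 promoters cut to the same length, 33.8% hold at least 1 match at the Isl1 length and 10.1% hold at least 2, while 20.3% hold at least 1 at the Fezf1 length. The motif was chosen after the sequences had been seen, and a match is a description of letters. On both strands, neither ACAATG, a Sox-type motif, nor TAATTA, a homeodomain-type motif, occurred in these windows; at the Isl1 length they occur in 10.7% and 4.83% of all promoters. G and C made up 71.1% of the Isl1 window, 72.0% of the Sox2 window and 50% of the Fezf1 window, beside a median of 52.4% over all promoters.

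The libraries held 32523 cells and 171257947 unique molecular identifiers (UMIs, 1 for every RNA molecule captured), with 950 to 4738 cells and 6302659 to 26028492 UMIs per library and median depths of 3296.5 to 5717 UMIs per cell. The protocol states a higher average number of cells recovered per channel. All 5 amacrine markers (Pax6, Tfap2a, Tfap2b, Slc32a1, Snhg11) were detected, summing to 6496 to 7893 CPM (a gene's UMIs scaled to a fixed total in each library). The 10 Müller glia markers summed to 1003 to 1204 CPM over all cells and the 8 bipolar markers to 110 to 210 CPM. Of 4 microglial markers, 3 were detected and P2ry12 was at 0, and the list summed to 1.69 to 17.1 CPM. Between libraries, 1860 cells (5.72%) shared a barcode. Doublets, droplets that hold more than 1 cell, were not removed here.

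Cells were gated on transmitter and type genes that are not among the 9, and gates overlap. The Gad gate (at least 2 UMIs of the GABA-synthesis genes Gad1 and Gad2 together and none of the glycine transporter Slc6a9) held 16415 cells with a median of 5411 UMIs, and the Slc6a9 gate (the reverse) 4556 cells with 3664. The Chat gate (at least 2 UMIs of the acetylcholine genes Chat and Slc18a3 together) held 651 cells, 17 to 129 per library, with a median of 7462 UMIs. The Slc17a8 gate (at least 2 UMIs of the vesicular glutamate transporter VGLUT3) held 666 cells, 24 to 119 per library, with a median of 4841. The Gjd2 gate (at least 3 UMIs of connexin 36, a gap junction protein of AII amacrine cells) held 1940 cells with 5724, and the Cdkn1c gate (at least 2 UMIs of a cyclin-dependent kinase inhibitor) 2350 cells with 7703.5. All 5 starburst markers were present in the Chat gate, where they summed to 2132 to 5535 CPM, and all 5 AII markers in the Gjd2 gate, at 1671 to 2785 CPM, although the same list summed to 3748 to 8432 CPM in the Chat gate. The AII list also summed to 1309 to 2012 CPM in the Slc6a9 gate. The starburst list includes Chat and Slc18a3 and the AII list includes Gjd2, so the presence of these gate genes was fixed by the gates. The batches differed in makeup: the Chat gate took 2.74% of cells in batch 1, 1.58 to 2.72% in batch 2 and 1.05 to 1.25% in batch 3, and the Slc6a9 gate 14.8%, 8.13 to 11.3% and 21.2 to 23.2%. Where the levels of a member in a gate did not overlap between batch 2 and batch 3, the ranges are given with the results.

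**Figure D1:**
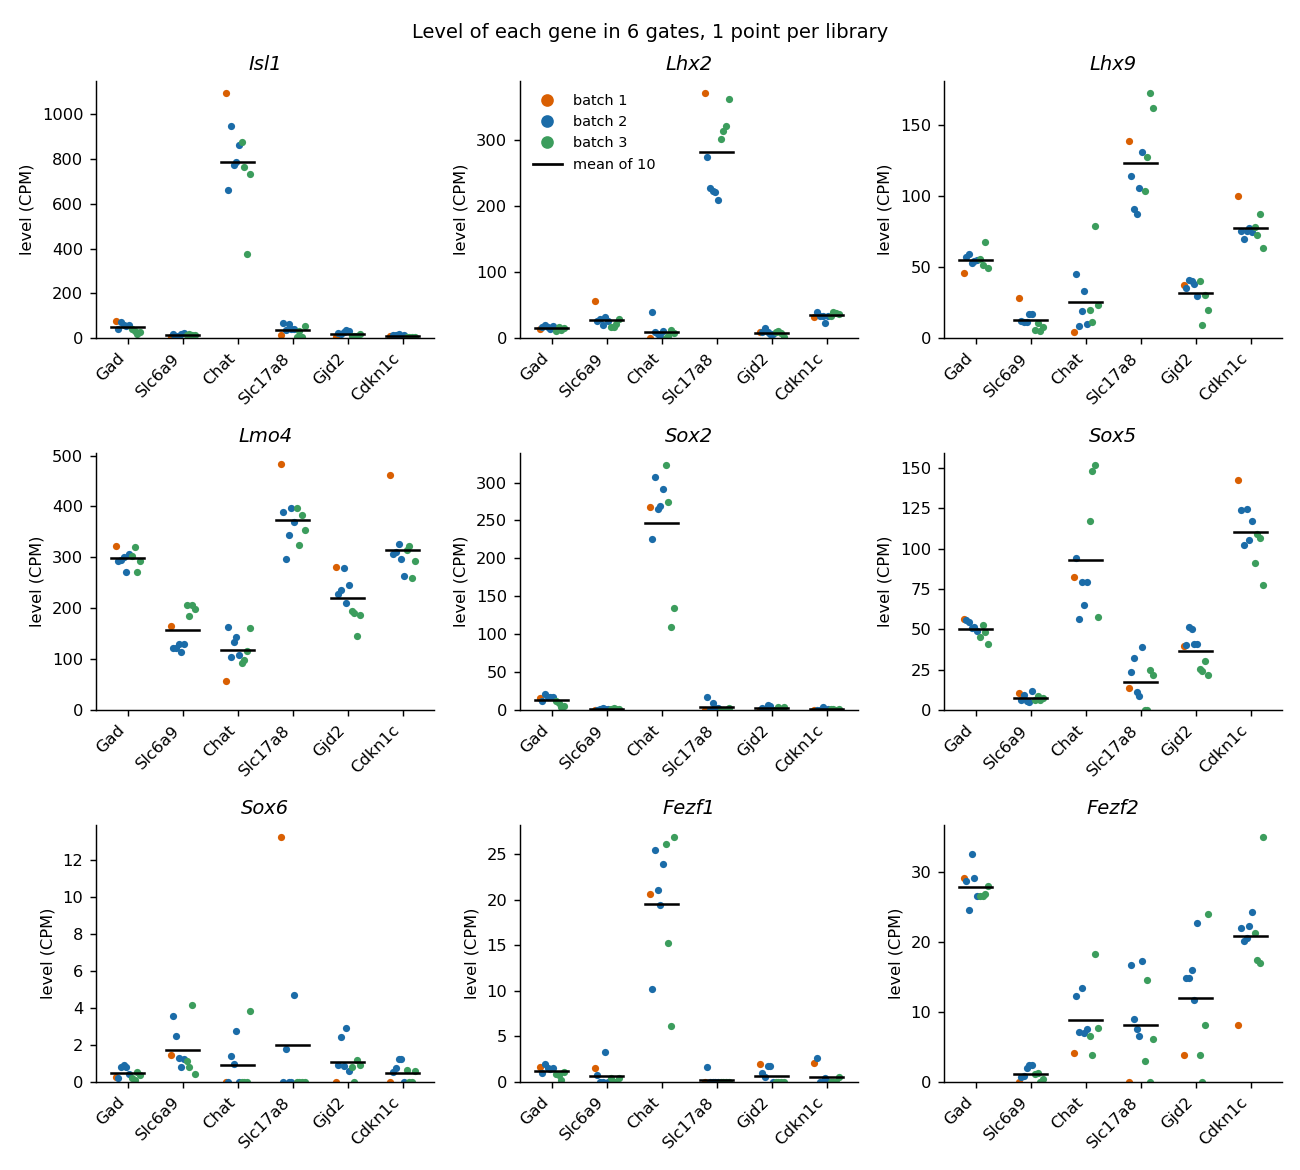
Level of each of the 9 genes (y axis, CPM of the summed counts of a gate in a library; each panel has its own scale) in the 6 gates (x axis). Each point is 1 of 10 libraries, coloured by batch, and each bar is the mean of the 10. Isl1, Sox2 and Fezf1 stand above every other gate in the Chat gate, Lhx2 in the Slc17a8 gate, and the means of Lhx9 and Lmo4 are also highest in the Slc17a8 gate; Sox5 is highest in the Cdkn1c and Chat gates and Fezf2 in the Gad and Cdkn1c gates.

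Cholinergic cells carried Isl1, Sox2 and Fezf1 at levels far above all other cells. In the Chat gate against cells outside it, Isl1 and Sox5 were higher and 4 members (Lhx2, Lhx9, Lmo4, Fezf2) were lower. Of the 11416 genes tested, 34.7% were called, 16.8% higher and 18% lower. Calls that were higher by at least 2-fold made up 4.04% of genes tested, and Isl1 and Sox5 were among them. Sox2 and Fezf1 are left out here, since they passed the low-count filter through their level in the gate. Their values are a description. Sox6 was too sparse to test in this or any other comparison.

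The LIM-homeodomain gene Isl1 was measured in the Chat gate at 377 CPM in the lowest library (library 9), 779 CPM at the median and 1095 CPM in the highest (library 1). Cells outside the gate were at 10.9 to 17.7 CPM, so the groups did not overlap in any library. The mean was 788 ± 189 CPM (SD, n = 10 libraries) inside and 13.6 ± 2.39 CPM outside, a log2 difference of 5.91 ± 0.10 (SE; edgeR adjusted p = 4.16e-26), with 5.77 in batch 2 and 5.92 in batch 3. A UMI of Isl1 was found in 80.2% of gated cells (95% exact binomial interval 76.9 to 83.2%, counting error only) and in 6.17% of Cdkn1c-gate cells, which have a like median depth. When each cell was thinned to 2000 UMIs, the Chat-gate share was 69.9%. The gate is 2.002% of all cells and held 63.2% of all Isl1 UMIs.

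Sox2, the SoxB1 gene, was the member with the widest gap between cholinergic and other cells. Its level was 109 CPM in the lowest library, 268 CPM at the median and 323 CPM in the highest, against 0.825 to 2.64 CPM outside the gate. Libraries 9 and 10 of batch 3 were the 2 lowest, yet both lay far above every value outside the gate. The means were 246 ± 71.0 CPM and 1.63 ± 0.684 CPM (SD, n = 10). The log2 difference was 7.23 ± 0.14 (SE), with 7.04 in batch 2 and 7.45 in batch 3. Sox2 was detected in 64.5% of gated cells (60.7 to 68.2%) and in 0.766% of Cdkn1c-gate cells; the thinned share in the Chat gate was 40.4%. The Chat gate held 81.5% of all Sox2 UMIs. Müller glia also express Sox2; their 10 markers summed to 226 to 665 CPM in the Chat gate, against 1003 to 1204 CPM over all cells; their part in the Sox2 level was not tested.

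Fezf1, a repressor gene, was rare: 164 UMIs in 121 cells of the whole series, of which 103 UMIs (62.8%) lay in the Chat gate. It was measured there at 6.07 CPM in the lowest library, 20.8 CPM at the median and 26.9 CPM in the highest, and at 0 to 0.720 CPM outside, without overlap. The mean was 19.5 ± 7.004 CPM (SD, n = 10) and the log2 difference 5.79 ± 0.32 (SE), with 5.55 in batch 2 and 6.59 in batch 3. A UMI of Fezf1 was found in 11.8% of Chat-gate cells (9.45 to 14.6%; 5.66% thinned) and in 0.213% of Cdkn1c-gate cells. Its paralogue Fezf2 went the other way, at 3.81 to 18.2 CPM inside and 19.7 to 26.3 CPM outside (log2 difference -1.33 ± 0.18 SE; edgeR adjusted p = 1.32e-06).

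Sox5, the SoxD gene, was higher in cholinergic cells by a smaller margin. Its levels in the Chat gate were 56.6 CPM at the lowest, 80.9 CPM at the median and 152 CPM at the highest, against 31.0 to 45.1 CPM outside, again without overlap. The log2 difference was 1.16 ± 0.13 (SE; edgeR adjusted p = 5.35e-08) and was larger in batch 3 (1.78) than in batch 2 (0.87). Sox5 was detected in 34.1% of gated cells, or 11.6% after thinning, and in 11.8% of cells outside the gate (not thinned). In Slc6a9-gate cells, which are shallower (3664 against 7462 UMIs), the share was 2.55%. In the gated cells with both Isl1 and Sox2, Sox5 was at 66.0 ± 24.4 CPM (SD, n = 9 libraries) beside 39.7 ± 5.14 CPM outside the gate (n = 10), under 2-fold; this difference was not tested.

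The other LIM genes were lower in the Chat gate. Lmo4, the LIM-only gene, was at 57.6 to 164 CPM inside and 256 to 285 CPM outside, with a log2 difference of -1.09 ± 0.09 (SE; edgeR adjusted p = 4.15e-11), and the ranges did not overlap. Lhx2 was at 0 to 38.9 CPM, a median of 7.19 CPM, against 15.1 to 23.7 CPM outside (log2 difference -0.99 ± 0.28 SE; edgeR adjusted p = 0.00597). Lhx9 was at 4.12 to 79.0 CPM, a median of 19.4 CPM, against 38.4 to 49.4 CPM (log2 difference -0.98 ± 0.20 SE; edgeR adjusted p = 2.96e-04). Both ranges overlapped those outside the gate, and each gene was lower in 9 of 10 libraries. In batch 3 alone the Lhx9 difference was -0.49 and was not called (edgeR adjusted p = 0.331). Cells outside the Slc17a8 gate were at 8.85 to 16.8 CPM of Lhx2. The part of Slc17a8-gate cells in the Lhx2 difference was not tested.

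The Chat gate was not uniform for Isl1 and Sox2. Both genes were detected in 407 of its 651 cells (62.5%), Isl1 alone in 115 (17.7%), Sox2 alone in 13 (1.997%) and neither in 116 (17.8%). The cells with both had a median of 8120 UMIs and a pooled level of 3962 CPM for the starburst marker Rims1, and those with Isl1 alone had 3801 UMIs and 2128 CPM. The cells with neither had 5944.5 UMIs, 205 CPM of Rims1, 175 CPM of Sox5 and a median of 2 gate UMIs, the lowest the gate admits, beside 8 gate UMIs and 66.4 CPM of Sox5 in the cells with both. The double-negative cells thus stood at the edge of the gate and carried little of the other starburst marker. Outside the gate, 302 cells held at least 2 UMIs of Isl1, and the ON bipolar genes Trpm1 and Grm6 were detected in 38.4% and 40.1% of these. Of these 302 cells, 49 also held Sox2, and their Rims1 level was 2827 CPM.

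**Figure D2:**
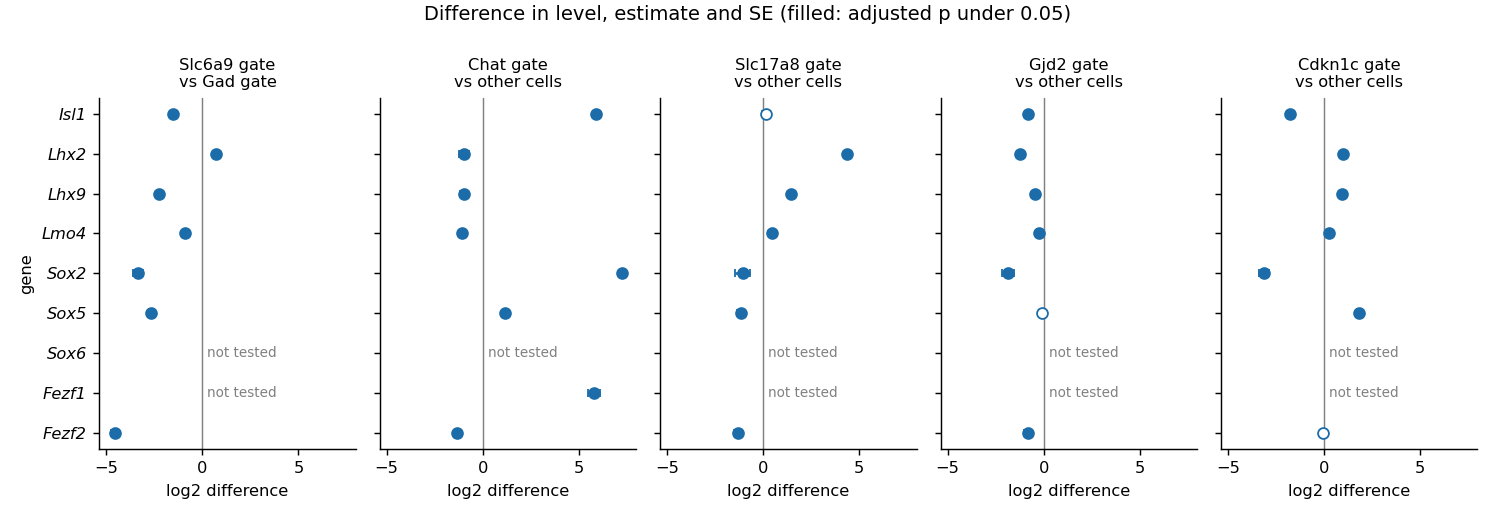
Log2 difference ± SE (x axis; summed counts per library, edgeR) of each of the 9 genes (y axis) in 5 comparisons, 1 per panel; filled points have an adjusted p under 0.05 and open points do not. In the Chat panel the largest differences are Sox2 at 7.23, Isl1 at 5.91 and Fezf1 at 5.79, in the Slc17a8 panel Lhx2 at 4.34, and in the Slc6a9 against Gad panel Fezf2 at -4.56. Sox2 in every panel, Fezf1 in the Chat panel and Fezf2 in the Slc6a9 against Gad panel are descriptions whatever their fill. They passed the low-count filter through the group where they were high. Genes too sparse to test are marked as not tested.

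Cells with the vesicular glutamate transporter Slc17a8, the marker of VG3 amacrine cells, carried Lhx2 and more Lhx9 and Lmo4 than other cells. In the Slc17a8 gate against other cells, Lhx2, Lhx9 and Lmo4 were called higher and Sox5 and Fezf2 lower. Of the 11459 genes tested, 25.1% were called, 10.6% higher and 14.5% lower. Isl1 was not called. Sox2 is left out here, since it passed the low-count filter through its level in the other cells. Calls that were higher by at least 2-fold made up 2.78% of genes tested, and Lhx2 and Lhx9 were among them.

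Lhx2 was measured in the Slc17a8 gate at 209 CPM in the lowest library, 288 CPM at the median and 371 CPM in the highest, against 8.85 to 16.8 CPM outside. The groups were far apart in every library, and within the gate the batch 3 libraries (302 to 362 CPM) lay above those of batch 2 (209 to 274 CPM). The means were 283 ± 60.2 CPM and 12.9 ± 2.33 CPM (SD, n = 10), a log2 difference of 4.34 ± 0.12 (SE; edgeR adjusted p = 2.65e-24), with 3.97 in batch 2 and 4.88 in batch 3. A UMI of Lhx2 was found in 67.1% of gated cells (63.4 to 70.7%; 41.2% thinned), and in 3.92% of Gjd2-gate cells, which are deeper (5724 against 4841 UMIs). The gate held 33.8% of all Lhx2 UMIs.

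Lhx9, the closest relative of Lhx2, was measured at 87.3 CPM in the lowest library, 121 CPM at the median and 173 CPM in the highest, against 35.5 to 46.6 CPM outside, without overlap. Its log2 difference was 1.43 ± 0.11 (SE; edgeR adjusted p = 1.83e-12), with 1.18 in batch 2 and 1.82 in batch 3. It was detected in 44.6% of gated cells (40.8 to 48.5%, and 21.6% thinned) and in 13.0% of cells outside the gate. In Slc6a9-gate cells (median depth 3664 UMIs) the share was 2.92%. Lmo4 was at 297 CPM in the lowest library, 376 CPM at the median and 484 CPM in the highest, above the 248 to 277 CPM outside in 10 of 10 libraries. Its log2 difference was 0.45 ± 0.06 (SE; edgeR adjusted p = 8.05e-08), with 0.42 in each of batches 2 and 3.

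Sox2, Sox5 and Fezf2 were lower in these cells than in all other cells, but their means were not the lowest of the 6 gates. The Slc6a9 gate averaged 7.61 CPM of Sox5 and 1.11 CPM of Fezf2, against 17.4 and 8.03 CPM in the Slc17a8 gate. For each of these 2 genes the Slc17a8 gate was higher in 8 of 10 libraries. Sox5 was at 0 to 39.0 CPM, a median of 17.4 CPM, against 33.2 to 47.3 CPM outside (log2 difference -1.18 ± 0.21 SE; edgeR adjusted p = 4.75e-05). Fezf2 was at 0 to 17.2 CPM against 19.8 to 26.3 CPM, with no overlap (log2 difference -1.31 ± 0.22 SE; edgeR adjusted p = 2.19e-05). The Sox2 difference of -1.08 ± 0.38 (SE) rested on 21 UMIs in the gate and is a description. It was not called in batch 2 alone (-0.87), in batch 3 alone (-2.52) or with the stricter gate of at least 4 UMIs (-0.84). Nor was it called without library 3, 5, 6, 7 or 8 (-0.81 to -0.99).

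Isl1 in the Slc17a8 gate ran from 5.93 to 66.4 CPM, a median of 38.1 CPM, wider than and overlapping the 17.7 to 54.1 CPM outside it, and its log2 difference of 0.12 ± 0.17 (SE) was not called (edgeR adjusted p = 0.682). Without the cells that carried at least 4 markers of a non-amacrine class the difference was -1.04 (edgeR adjusted p = 8.76e-05). Without the cells with at least 3 of the rarer markers of such a class, a filter chosen after seeing the data, it was -1.005 (edgeR adjusted p = 0.00107). Against Slc6a9-gate cells only it was 1.54 (edgeR adjusted p = 7.52e-06). The 8 bipolar markers summed to 111 to 750 CPM in this gate and 110 to 210 CPM over all cells; their part in the Isl1 level was not tested.

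Between the transmitter classes, the members were mostly lower in glycinergic than in GABAergic cells. In the Slc6a9 gate against the Gad gate, Lhx2 was called higher and Isl1, Lhx9, Lmo4 and Sox5 were called lower. Of the 11250 genes tested, 61.2% were called, 32.1% higher and 29.1% lower. A call by itself was thus common in this comparison. Calls that were lower by at least 2-fold were rarer, at 7.99% of genes tested, and Isl1, Lhx9 and Sox5 were among them. Sox2 and Fezf2 are left out here, since they passed the low-count filter through their level in the Gad gate. Their values are a description. The Isl1, Sox2 and Lhx2 levels are given with and without the cells of the 2 small gates just described.

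Fezf2 had the widest gap between the classes. In the Gad gate it was measured at 24.5 CPM in the lowest library, 27.4 CPM at the median and 32.6 CPM in the highest. In the Slc6a9 gate it was at 0 to 2.45 CPM, a median of 0.972 CPM, from 19 UMIs in 4556 cells, and the groups did not overlap. The log2 difference was -4.56 ± 0.19 (SE), with -4.03 in batch 2 and -5.08 in batch 3. A UMI of Fezf2 was found in 9.45% of Gad-gate cells (4.15% thinned) and in 0.417% of Slc6a9-gate cells (0.269% thinned). Of the 947 cells with at least 2 UMIs of Fezf2, 0 were in the Slc6a9 gate.

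Sox5 was measured in the Gad gate at 41.0 CPM in the lowest library, 51.1 CPM at the median and 56.5 CPM in the highest, and in the Slc6a9 gate at 4.89 to 11.6 CPM, without overlap. Its log2 difference was -2.70 ± 0.10 (SE; edgeR adjusted p = 9.88e-16), and -2.74 and -2.71 in batches 2 and 3. Lhx9 was at 46.1 to 67.9 CPM in the Gad gate and 4.83 to 27.9 CPM in the Slc6a9 gate (log2 difference -2.25 ± 0.15 SE; edgeR adjusted p = 3e-11). These groups also did not overlap, and library 1 had the highest Lhx9 level of the Slc6a9 gate. Lhx9 in that gate was at 11.4 to 17.1 CPM in batch 2 and 4.83 to 11.0 CPM in batch 3, with differences of -1.98 and -2.84. Lmo4 was at 272 to 323 CPM in the Gad gate and 113 to 206 CPM in the Slc6a9 gate (log2 difference -0.88 ± 0.08 SE; edgeR adjusted p = 2.45e-09). Within the Slc6a9 gate Lmo4 split by batch, 113 to 129 CPM in batch 2 and 184 to 206 CPM in batch 3, and the difference was -1.23 and -0.59 in those batches.

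Isl1 was lower in the Slc6a9 gate (5.88 to 22.04 CPM) than in the Gad gate (20.2 to 75.5 CPM) in 10 of 10 libraries, with a log2 difference of -1.51 ± 0.18 (SE; edgeR adjusted p = 2.55e-07). Its Gad-gate level was 40.7 to 71.7 CPM in batch 2 and 20.2 to 38.3 CPM in batch 3, the batch with the smaller share of Chat-gate cells. The 505 Gad-gate cells (3.08%) that were also in the Chat gate held 74.1% of that gate's Isl1 UMIs and 86.4% of its Sox2 UMIs. Outside the Chat gate, Isl1 in the Gad gate was 12.7 ± 2.92 CPM (SD, n = 10), and the log2 difference between the classes turned to 0.28 and was not called (edgeR adjusted p = 0.109; setting chosen after seeing the data). Sox2 in the Gad gate was 12.9 ± 5.63 CPM with and 1.75 ± 0.807 CPM without those cells and was then too sparse to test. Its log2 difference with them was -3.34 ± 0.24 (SE). With them Sox2 in the Gad gate was at 11.9 to 20.7 CPM in batch 2 and 3.73 to 11.6 CPM in batch 3, with differences of -3.83 and -2.67.

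Lhx2 was higher in the Slc6a9 gate (16.7 to 55.8 CPM, a median of 25.6 CPM) than in the Gad gate (10.9 to 19.2 CPM) in 10 of 10 libraries, although the ranges overlapped. The log2 difference was 0.72 ± 0.13 (SE; edgeR adjusted p = 1.04e-04). Of the 409 Lhx2 UMIs in the Slc6a9 gate, 343 came from the 190 cells that were also in the Slc17a8 gate, where Lhx2 stood at 385 ± 116 CPM (SD, n = 10) and was detected in 72.1% of cells. The other 4366 Slc6a9-gate cells had 4.66 ± 4.68 CPM, with Lhx2 in 0.916% of cells. Without Slc17a8-gate cells in both arms, a setting chosen after seeing the data, the log2 difference turned to -1.75 (edgeR adjusted p = 3.25e-06), and with a stricter gate of at least 4 UMIs it was -0.0095 (edgeR adjusted p = 0.972). Lhx9 also split within the Slc6a9 gate, at 151 ± 41.4 CPM in the cells shared with the Slc17a8 gate and 3.53 ± 3.46 CPM in the rest.

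Sox6 was near the limit of detection, with 124 UMIs in 107 cells (0.329%) of the series. Its levels were 0.413 to 4.14 CPM in the Slc6a9 gate (26 UMIs) and 0.115 to 0.879 CPM in the Gad gate (48 UMIs). The ranges overlapped, and the Slc6a9 gate was above the Gad gate in 10 of 10 libraries, a difference that was not tested because the gene did not pass the low-count filter. In the other 4 gates Sox6 ranged from a mean of 0.489 CPM in the Cdkn1c gate to 1.97 CPM in the Slc17a8 gate. That last mean rests on library 1, at 13.3 CPM; the other libraries were at 0 to 4.68 CPM, and 6 UMIs were counted in all.

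Cells of the Cdkn1c gate, 75.9% of which were also in the Gad gate, carried Sox5, Lhx2 and Lhx9 above other cells. In the Cdkn1c gate against other cells, 4 members (Lhx2, Lhx9, Lmo4, Sox5) were called higher and Isl1 was called lower. Of the 11849 genes tested, 38.9% were called, 20.9% higher and 18% lower. Fezf2 was not called. Sox2 is left out here, since it passed the low-count filter through its level in the other cells. Calls that were higher by at least 2-fold made up 1.42% of genes tested, and Sox5 was the member among them.

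Sox5 was measured in the Cdkn1c gate at 77.2 CPM in the lowest library (library 10), 108 CPM at the median and 142 CPM in the highest (library 1), against 26.1 to 38.2 CPM outside, without overlap. The means were 110 ± 18.4 CPM and 32.1 ± 4.31 CPM (SD, n = 10), a log2 difference of 1.79 ± 0.05 (SE; edgeR adjusted p = 1.76e-20), with 1.76 in batch 2 and 1.83 in batch 3. It was detected in 39.7% of gated cells (37.7 to 41.7%, and 18.5% thinned), in 10.1% of cells outside the gate and in 2.55% of the shallower Slc6a9-gate cells. Lhx9 was at 63.8 CPM in the lowest library, 75.6 CPM at the median and 100.3 CPM in the highest, against 32.5 to 45.5 CPM outside, without overlap (log2 difference 0.93 ± 0.06 SE; edgeR adjusted p = 8.15e-13). Lhx2 was at 23.0 CPM in the lowest library, 33.7 CPM at the median and 40.2 CPM in the highest, against 12.8 to 21.4 CPM, without overlap. Its log2 difference of 0.997 ± 0.09 (SE; edgeR adjusted p = 6.93e-10) was 0.78 in batch 2 and 1.41 in batch 3.

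Lmo4 was at 259 to 461 CPM in the Cdkn1c gate against 245 to 274 CPM outside, higher in 9 of 10 libraries (log2 difference 0.26 ± 0.04 SE; edgeR adjusted p = 2.43e-05). Against Gad-gate cells only, the Lmo4 difference was 0.05 and was not called (edgeR adjusted p = 0.366), and with the stricter gate it was -0.0050. Isl1 was at 5.38 to 17.8 CPM against 19.3 to 56.9 CPM outside (log2 difference -1.79 ± 0.09 SE; edgeR adjusted p = 3.7e-15), without overlap. Its level in the gate was 11.1 to 17.8 CPM in batch 2 and 5.38 to 6.70 CPM in batch 3, and the difference was -1.70 and -2.02 in those batches. Cells outside the Chat gate were at 10.9 to 17.7 CPM of Isl1, a range that overlaps that of the Cdkn1c gate. The part of Chat-gate cells in the Isl1 difference was not tested. Sox2 was at 0 to 3.98 CPM against 3.11 to 14.7 CPM (log2 difference -3.13 ± 0.25 SE), from 24 UMIs in the gate. These Sox2 values are a description. Cells outside the Chat gate were at 0.825 to 2.64 CPM of Sox2. Fezf2 was at 8.03 to 35.0 CPM, around the 19.2 to 26.5 CPM outside (log2 difference -0.07 ± 0.10 SE; edgeR adjusted p = 0.600). Against Gad-gate cells only it was -0.42 (edgeR adjusted p = 7.22e-04), and with the stricter gate -0.38 (edgeR adjusted p = 0.00451).

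Within the Cdkn1c gate, Lhx2 and Sox5 lay mostly in different cells. Both were detected in 66 cells, where 157 would be expected from their shares within each library, a ratio of 0.421, and in 5 against 21.4 after thinning. The 326 cells with Lhx2 and no Sox5 were in the gate of Tac1, the substance P gene, in 43.6% of cases, in that of Th, the dopamine synthesis gene, in 13.2% and in that of the transcription factor gene Bhlhe22 in 70.2%. The 866 cells with Sox5 and no Lhx2 were in those gates in 7.39%, 3.58% and 20.1% of cases, and in the gate of the peptide gene Npy in 22.4%, against 3.07% of the Lhx2 cells. Sox5 stood at 283 ± 56.7 CPM (SD, n = 7 libraries) in the 119 cells shared with the Cck gate and at 98.5 ± 17.1 CPM (n = 10) in the rest. Lhx2 stood at 120 ± 57.3 CPM (n = 5) in the 117 cells shared with the Th gate and at 29.8 ± 5.37 CPM (n = 10) outside it. Fezf2 stood at 53.6 ± 14.3 CPM (n = 9) in the 459 cells shared with the Tac1 gate and at 11.2 ± 4.30 CPM (n = 10) outside it, the reverse of Sox5, which was at 45.8 ± 20.5 and 130 ± 18.6 CPM.

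In cells with high connexin 36, no member was called higher. In the Gjd2 gate against other cells, Isl1, Lhx2, Lhx9, Lmo4 and Fezf2 were called lower. Of the 11647 genes tested, 48.4% were called, 23.9% higher and 24.5% lower. Sox2 is left out here, since it passed the low-count filter through its level in the other cells. Lhx2 was at 1.78 to 14.8 CPM inside and 15.3 to 24.9 CPM outside, without overlap (log2 difference -1.22 ± 0.14 SE; edgeR adjusted p = 2.11e-07). Cells outside the Slc17a8 gate were at 8.85 to 16.8 CPM of Lhx2, which overlaps the Gjd2 gate. The part of Slc17a8-gate cells in this difference was not tested. For Isl1, Lhx9, Lmo4 and Fezf2 the ranges overlapped. The log2 differences were -0.84 ± 0.13 for Isl1 and -0.81 ± 0.19 for Fezf2 (edgeR adjusted p = 1.7e-05 and 0.00162). Sox2, with 42 UMIs in the gate, differed by -1.86 ± 0.30 with overlapping ranges, which is a description. Lhx9 differed by -0.43 ± 0.10 and Lmo4 by -0.25 ± 0.06 (edgeR adjusted p = 0.00182 and 0.00129). Isl1 was at 5.67 to 35.0 CPM in the Gjd2 gate and at 10.9 to 17.7 CPM in cells outside the Chat gate. Set against Slc6a9-gate cells outside the Gjd2 gate, the Isl1 difference was 0.21 and was not called (edgeR adjusted p = 0.396). The part of Chat-gate cells in the Isl1 difference was not tested. Lmo4 split by batch in this gate, at 209 to 279 CPM in batch 2 and 145 to 195 CPM in batch 3, and its log2 difference was -0.12 and -0.51 in those batches. Sox5, at 21.3 to 51.2 CPM inside and 33.2 to 47.1 CPM outside, was not called (-0.09 ± 0.08; edgeR adjusted p = 0.392); its levels were 40.0 to 51.2 CPM in batch 2 and 21.3 to 30.1 CPM in batch 3. The Sox5 difference was 0.0729 in batch 2 alone, but it was called in batch 3 alone (-0.45; edgeR adjusted p = 0.00917) and with a stricter gate of at least 6 UMIs of Gjd2 (-0.96; edgeR adjusted p = 0.00269).

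The Gjd2 gate mixed cells of both transmitter classes, between which the levels of 3 members differed widely. In the 934 gated cells that were also in the Slc6a9 gate (median 4834.5 UMIs), Sox5 was 1.61 ± 2.26 CPM, Lhx9 2.01 ± 2.13 CPM and Lmo4 121 ± 21.9 CPM (SD, n = 10). In the 222 that were in the Gad gate (median 9992.5 UMIs), Sox5 was 106 ± 21.6 CPM, Lhx9 81.2 ± 32.7 CPM and Lmo4 333 ± 125 CPM. The 784 cells in neither gate (median 9195.5 UMIs) lay between. Set against Slc6a9-gate cells outside the Gjd2 gate, the whole Gjd2 gate had higher Sox5 (log2 difference 1.83; edgeR adjusted p = 1.1e-08), Lhx9 (1.001; 4.62e-04) and Lmo4 (0.39; 0.0373), so the direction depended on the cells compared. Lhx9 and Sox5 were found together in 127 gated cells, against 38.6 expected, and 68.5% of these were in the gate of the neurofilament gene Nefh.

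The order of the 6 gates differed from gene to gene. For Isl1, Sox2 and Fezf1 the Chat gate was first and did not overlap the next, the Gad gate. For Lhx2 the Slc17a8 gate was first and did not overlap the next, the Cdkn1c gate. For Lhx9 the order was Slc17a8, Cdkn1c, Gad, Gjd2, in which the first 2 pairs of neighbours overlapped although the upper gate was higher in 10 of 10 libraries, and the Gad and Gjd2 gates did not overlap. For Lmo4 every pair of neighbours overlapped, with the Slc17a8 gate above the Cdkn1c gate in 9 of 10 libraries and the Slc6a9 gate above the Chat gate in 7 of 10. For Sox5 the Cdkn1c gate was above the Chat gate in 7 of 10 libraries with overlapping ranges, and the Chat gate did not overlap the Gad gate below it. For Fezf2 the Gad gate was above the Cdkn1c gate in 9 of 10 libraries with overlapping ranges.

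In 20 further gates on peptide, transmitter and transcription factor genes, other cells with high levels of the members appeared. Levels are given where at least 10 cells were present in a library, and the Sst gate reached that in 1 library and is left out of the order. The highest Fezf2 level was in the Npy gate (at least 5 UMIs), at 108 ± 26.4 CPM (SD, n = 10) with Fezf2 in 38.9% of 2139 cells (16.6% thinned). The gates of the tachykinin genes followed for Fezf2, with 84.0 ± 13.7 CPM for Tac2 and 71.5 ± 11.3 CPM for Tac1. The Npy gate held 2 kinds of cells: the 405 cells shared with the Chat gate had 7.98 ± 6.91 CPM of Fezf2 (n = 9), and the other 1734 had 130 ± 24.6 CPM (n = 10), with Fezf2 in 46.9% of cells. Fezf1 was 31.2 CPM on average in the shared cells and 0.761 CPM in the rest. Within the Npy gate each Fezf gene was thus low in the cells where the other was high.

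The gate of Nefh, a neurofilament gene of large neurons, was the highest for Lhx9, at 132 ± 25.2 CPM (SD, n = 10), above the Slc17a8 gate at 124 ± 28.8 CPM with overlapping ranges. In the 1372 Nefh-gate cells outside the Chat gate, Lhx9 was detected in 65.2% of cells, Lmo4 in 87.1% and Sox5 in 59.9%. For Sox5 the Cck gate (148 ± 46.6 CPM), the Nefh gate (135 ± 10.7 CPM) and the Cdkn1c gate came first and overlapped one another. For Lmo4 the Crh gate was first, at 670 ± 301 CPM in 6 libraries, followed by the Maf gate at 588 ± 88.7 CPM in 10. For Lhx2 the Th gate came after the Slc17a8 gate, at 99.99 ± 31.3 CPM in 9 libraries. For Sox6 the highest mean was 2.78 CPM in the Th gate, with a range of 0 to 21.6 CPM.

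**Figure D3:**
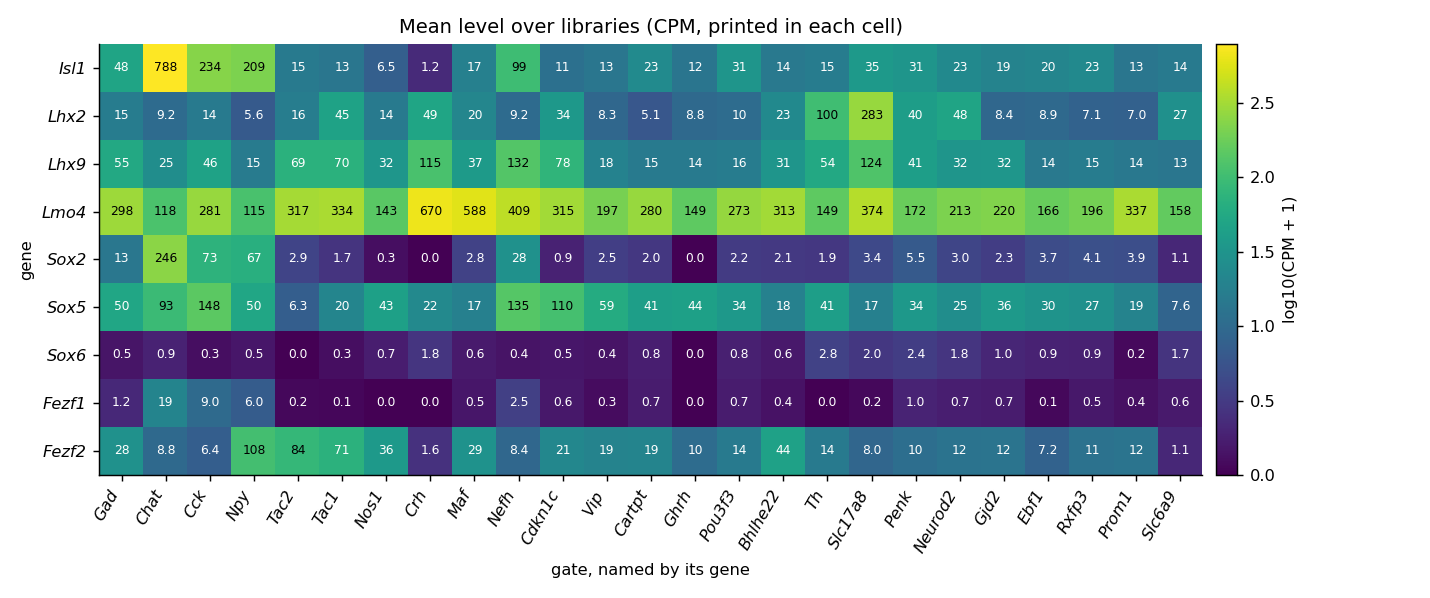
Mean level over libraries of the 9 genes (rows) in 25 gates (columns), with colour on a log10 scale of CPM + 1. Isl1, Sox2 and Fezf1 share the Chat gate as their highest (788, 246 and 19.5 CPM) and are next highest in the Cck and Npy gates, which include Chat-gate cells; Fezf2 is highest in the Npy, Tac2 and Tac1 gates and Lhx2 in the Slc17a8 and Th gates.

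Pairs of members were found in the same cells more or less often than their shares within each library give. Of the 36 pairs, those with enough cells are described here at 2000 UMIs per cell, since deep cells show more genes of every kind; with all UMIs the ratio is given beside it. No p is given, because cells are not replicates. Isl1 and Sox2 were found together in 236 cells against 14.1 expected, a ratio of 16.7 (10.4 with all UMIs), and 69.2% of the cells with Sox2 also had Isl1. Fezf1 was found with Isl1 in 29 cells against 2.05 and with Sox2 in 23 against 0.704.

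Lhx2 and Lhx9 were found together in 121 cells against 52.7 expected, a ratio of 2.30 (1.75 to 2.86 over libraries; 2.42 with all UMIs). Within the Slc17a8 gate the ratio of this pair was 1.02 (1.11 with all UMIs), so the 2 genes were found together there about as often as their shares give. In the Slc6a9 gate 81 cells held both, with all UMIs, against 6.09 expected, and 91.4% of these were in the Slc17a8 gate. Lhx9 and Lmo4 were found together in 877 cells against 494 (ratio 1.77; 1.47 to 2.12 over libraries), and Lhx9 and Sox5 in 219 against 112 (1.95; 1.08 to 3.14).

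Fezf2 stood apart from Sox5 and Lhx2. Sox5 and Fezf2 were found together in 15 cells against 54.7 expected, a ratio of 0.274 (0 to 0.654 over libraries; 0.653 with all UMIs). Lhx2 and Fezf2 were found together in 9 against 25.9 (0.348; 0.852 with all UMIs), and Lhx2 and Sox5 in 25 against 50.7 (0.493; 0 to 1.12 over libraries). Isl1 and Lhx9 had a ratio of 0.496 thinned and 1.08 with all UMIs, so the direction for this pair depended on the depth used.

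**Figure D4:**
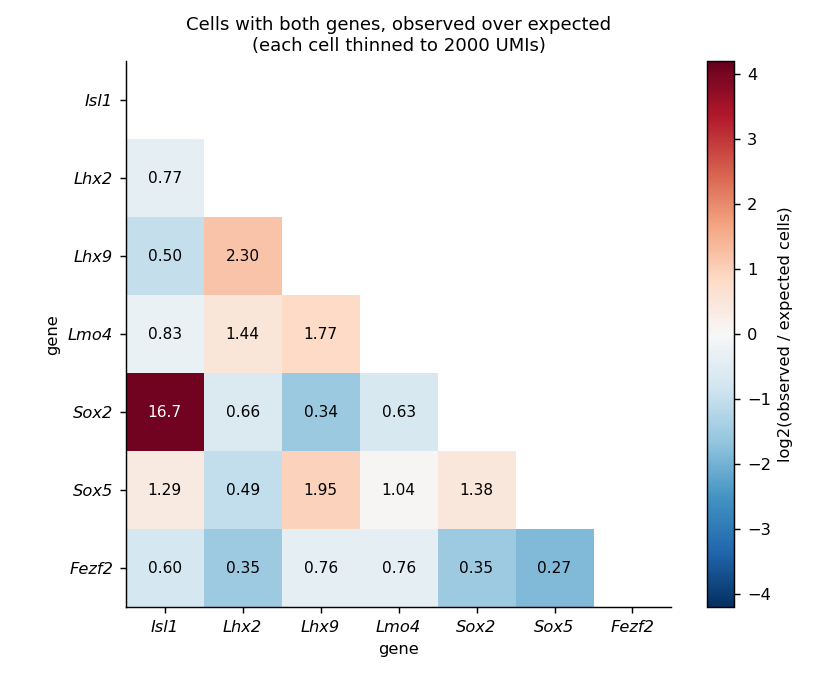
Observed over expected number of cells with both genes, for pairs among 7 of the 9 genes, in all cells thinned to 2000 UMIs; rows and columns are genes and the number in each square is the ratio. Isl1 with Sox2 has the highest ratio (16.7), and Sox5 with Fezf2 (0.274) and Lhx2 with Fezf2 (0.348) have low ones.

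The genes whose pattern was most like each member were ranked by the mean over libraries of the log2 ratio between cells with at least 2 UMIs of the member and cells with none (pseudocount 10 CPM). For Isl1 (775 cells, 10 libraries) they were Rims1 (5.69), Slc18a3 (4.89), Igfbp7 (4.65), Sox2 (4.26) and Slc5a7 (4.18), and for Sox2 (8 libraries) Rims1 (6.14), Isl1 (5.44), Slc18a3 (5.22), Igfbp7 (5.13) and Slc5a7 (4.79). Rims1 is a presynaptic active zone gene, Slc18a3 the vesicular acetylcholine transporter and Slc5a7 the choline transporter. Of the cells with at least 2 UMIs, 61.0% (Isl1) and 90.4% (Sox2) were in the Chat gate. For Lhx2 (683 cells) the genes were Slc17a8 (4.53), Tpbg (3.71), Nxph1 (3.53), Car3 (3.49) and A930001A20Rik (3.12), and 41.3% of its cells were in the Slc17a8 gate.

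Nefh led the lists of 3 members. For Lhx9 (1802 cells) they were Nefh (2.58), Arhgef26 (2.23), Olfm3 (2.20), Cbln1 (2.15) and Igfbp2 (2.08). For Sox5 (1564 cells) they were Nefh (2.87), Cdkn1c (2.75), Arhgef26 (2.65), Igfbp2 (2.65) and Ucma (2.53), with 36.4% of the cells in the Cdkn1c gate. For Lmo4 (7863 cells) they were Nefh (1.99), Cbln1 (1.96), Lhx9 (1.86), Gm2694 (1.82) and Tac2 (1.71). For Fezf2 (947 cells) they were the peptide gene Npy (3.30), C1ql3 (2.84), the adenosine receptor gene Adora1 (2.04), Elavl2 (1.98) and Tac1 (1.93). For Fezf1 only 1 library held 10 such cells, so no spread can be given: Espn, Rims1, Rprml, Isl1 and Slc18a3 led there. For Sox6 no library held enough cells. The positive cells were deeper than the rest (7641 against 4118 median UMIs for Isl1), which the ratio of summed CPM does not remove.

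Among cholinergic cells, those with a UMI of Fezf1 differed from those without in a group of genes. The comparison used libraries 3 to 6, all of batch 2, which had at least 10 cells in each arm, with 52 and 388 cells. Of 5767 genes tested, 71 were called (1.23%), 27 higher (0.468%) and 44 lower (0.763%), and 485 had an unadjusted p under 0.05. Cells without a UMI include cells whose Fezf1 RNA was missed, since the gene is sparse. The 77 Fezf1 cells of all libraries had a median of 8451 UMIs and the other Chat-gate cells 7357, and the arms also differed in starburst genes. Isl1 was found in 97.4% of the Fezf1 cells and 77.9% of the others, Sox2 in 88.3% and 61.3%, and Rims1 in 98.7% and 84.8%. The part of these differences in the genes named next was not tested, but values within Isl1-positive cells, a setting chosen after seeing the data, are given below.

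None of the 4 members tested was called between these arms. In data simulated with a fixed spread, not one estimated from these arms, the fit recovered 17.9% of 1.5-fold and 46.3% of 2-fold changes. A missing call therefore does not show equal levels. Isl1 was at 962 ± 125 CPM with and 826 ± 93.3 CPM without a Fezf1 UMI (SD, n = 4; log2 difference 0.22 ± 0.11 SE; edgeR adjusted p = 0.579). Sox2 was at 313 ± 43.9 and 279 ± 25.3 CPM (0.16 ± 0.15 SE; edgeR adjusted p = 0.859). Lmo4 differed by 0.35 ± 0.21 and Sox5 by -0.45 ± 0.35 (edgeR adjusted p = 0.747 and 0.811). Lhx2, Lhx9, Sox6 and Fezf2 were too sparse there to test.

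Among the genes higher with Fezf1 were Clstn2, a synaptic calsyntenin (83.5 against 26.3 CPM, log2 difference 1.72 ± 0.34 SE, edgeR adjusted p = 0.00133), and Coch, an extracellular matrix gene (121 against 39.6 CPM, 1.61 ± 0.30, 5.99e-04). The calcium-binding protein gene Necab2 was at 327 against 125 CPM (1.43 ± 0.17 SE, edgeR adjusted p = 2.03e-07) and Ass1, an enzyme of arginine synthesis, at 293 against 122 CPM (1.29 ± 0.18, 3.26e-06). The other 6 of the 10 largest were Neurog2, Ccnd1, Lrrtm1, Sh3bgrl, Camk4 and Pappa2, with log2 differences of 1.05 to 1.19. Camk4, a calcium-dependent kinase gene, was at 303 against 146 CPM. Each of these 10 genes was higher in 4 of 4 libraries, which the rule that named them required.

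The genes lower with Fezf1 had larger differences, several from very few molecules. Zfhx3, a homeobox gene, was at 46.2 ± 28.6 CPM with and 208 ± 50.2 CPM without a Fezf1 UMI (SD, n = 4; log2 difference -2.11 ± 0.27 SE; edgeR adjusted p = 8.28e-07). The adhesion gene Tenm3 was at 9.76 against 78.1 CPM, the potassium channel gene Kcnk12 at 9.07 against 73.9, Ntng1 at 7.93 against 50.4, Crabp1 at 24.6 against 113 and the LIM-only gene Lmo2 at 11.7 against 62.0 CPM. For 4 genes the Fezf1 arm held 1 to 3 UMIs, so the ratio of the pooled levels is given with its counting interval. The level without Fezf1 was 33.0 times that with it for Igfbp5 (95% interval 5.87 to 1311; 1 against 206 UMIs) and 25.8 times for the muscarinic receptor gene Chrm2 (4.57 to 1026; 1 against 161). It was 18.2 times for Igfbp2 (4.98 to 151; 2 against 227) and 17.7 times for Ppp1r17 (6.003 to 86.3; 3 against 331). All 10 were lower in 4 of 4 libraries, again as the naming rule required.

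How many genes were called between the Fezf1 arms depended on the tool and the cells. DESeq2 called 28, and 8 of the 20 named genes (Kcnk12, Tenm3, Crabp1, Lmo2, Neurog2, Ccnd1, Lrrtm1, Pappa2) were not among them, while Chrm2 and Ntng1 had no adjusted p there. Within cells with an Isl1 UMI, 46 genes were called (18 higher, 28 lower), and 44 of these were among the 71, all in the same direction. Of the named genes, Lrrtm1 and Pappa2 lost their call there (edgeR adjusted p = 0.0652 and 0.148), and Igfbp2, Ppp1r17, Ntng1 and Crabp1 were too sparse to test. The level without Fezf1 was lower in the Isl1-positive cells for these 4 genes: 59.3 CPM for Igfbp2 (76.1 in all gated cells), 25.1 for Ppp1r17 (125), 36.6 for Ntng1 (50.4) and 22.3 for Crabp1 (113). With Fezf1, the Isl1-positive levels were 4.23, 6.37, 7.93 and 11.6 CPM in the same order. Without library 5, 47 were called and without library 6, 138. Calls were lost for Coch, Crabp1, Lmo2 and Pappa2 without library 3, for Neurog2 and Pappa2 without library 4, for Ccnd1, Lrrtm1, Ntng1 and Pappa2 without library 5, and for Lrrtm1 without library 6. Calls were also lost for Crabp1 without the library block, for Lrrtm1 without cells with markers of other classes, and for Ccnd1 and Lrrtm1 without shared barcodes.

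**Figure D5:**
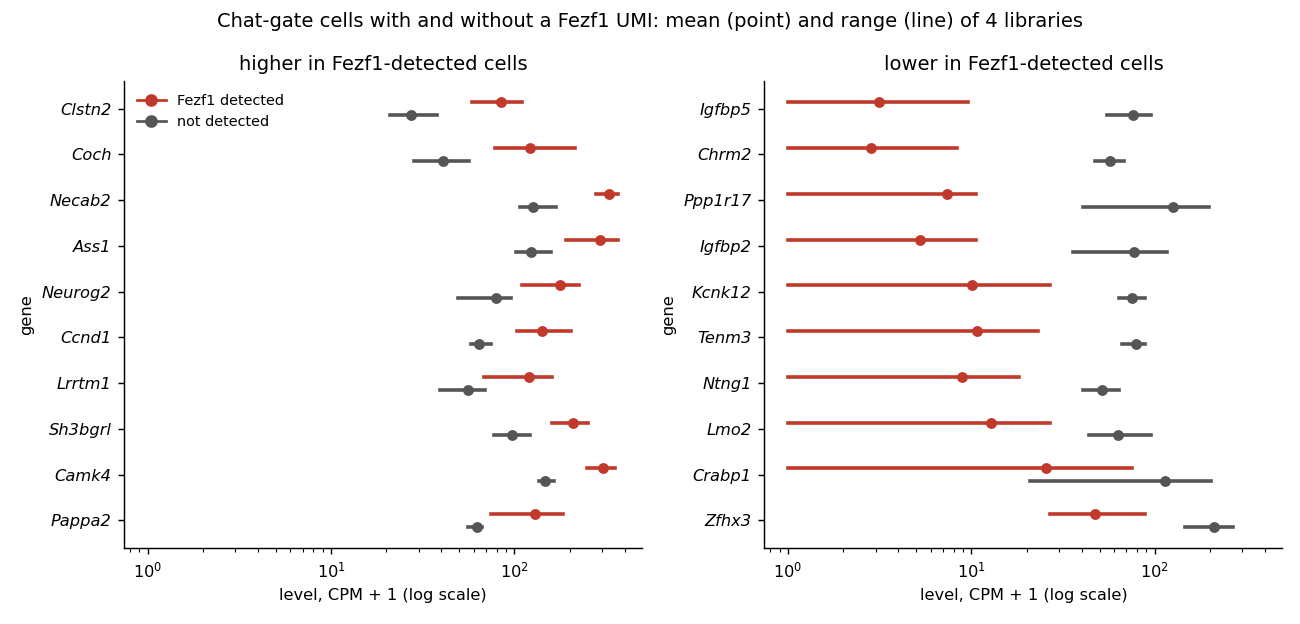
Level (x axis, CPM + 1, log scale) of the 10 genes with the largest higher and the 10 with the largest lower log2 difference (y axis) in Chat-gate cells with and without a Fezf1 UMI; points are means and lines the range of 4 libraries. Necab2 lies at 327 against 125 CPM and Zfhx3 at 46.2 against 208 CPM, and Igfbp5, Chrm2, Igfbp2 and Ppp1r17 are close to 0 in the cells with Fezf1.

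A list of 39 other genes of the same families and of their partners (LIM-homeodomain, LIM-only, LDB and SSBP genes, other Sox genes, and the TLE corepressors and Aes) was read in the same fits, and 38 are in the table. In the Slc6a9 against Gad comparison 5 were higher, 9 lower and 2 not called of 16 tested, where 32.1% of all genes tested were higher and 29.1% lower, with a median log2 difference of -0.22 against 0.03 over all genes tested. The corepressor gene Tle1 (55.6 against 25.6 CPM; 1.15 ± 0.06 SE), Sox4 (279 against 148 CPM; 0.93 ± 0.05) and Sox11 (23.0 against 11.96 CPM; 0.93 ± 0.14) were the largest higher, the last 2 being SoxC genes of young neurons. Tle3 (-1.31 ± 0.09), Ldb2 (18.9 against 38.5 CPM; -0.99 ± 0.11) and Lmo2 (-0.87 ± 0.18) were the largest lower; without Chat-gate cells Lmo2 was -0.27 and not called.

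In the Chat gate 2 of 16 were higher, 6 lower and 8 not called, where 16.8% of all genes tested were higher and 18% lower (median -0.02, and -0.01 over all genes). Lmo2 was the largest, at 50.1 ± 34.0 CPM inside and 3.39 ± 0.536 CPM outside (SD, n = 10; log2 difference 3.94 ± 0.22 SE; edgeR adjusted p = 1e-14), and Tle4 was at 112 against 63.8 CPM (0.92 ± 0.08). Ldb2, a cofactor gene that binds LIM domains, was lower (9.93 against 34.7 CPM; -1.68 ± 0.17), as were Sox11 (-1.17 ± 0.24; not called in batch 3 alone) and Tle3 (-1.05 ± 0.17). Lmo2 was thus high in the gate where Lmo4 was low, and within that gate it was lower in cells with Fezf1.

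In the Slc17a8 gate 6 of 16 were higher, 3 lower and 7 not called, where 10.6% of all genes tested were higher and 14.5% lower (median 0.22, and -0.01 over all genes). Sox11 was at 52.1 against 15.3 CPM (1.67 ± 0.13 SE) and Lhx4, a LIM-homeodomain gene, at 20.6 against 5.34 CPM (1.88 ± 0.23). Lhx4 was 0.88 and not called without the cells with rarer markers of other classes. Lmo2 was at the threshold (0.88 ± 0.33 SE; edgeR adjusted p = 0.0497) and was not called by DESeq2 (0.83), without the library block (0.90), in batch 2 alone (0.62) or in batch 3 alone (1.15). Ldb2 (-1.41 ± 0.22), Tle4 (-0.54 ± 0.11) and Ssbp4 (-0.40 ± 0.08) were lower. Against Slc6a9-gate cells only none of these 3 was called: Ldb2 was -0.62 (edgeR adjusted p = 0.0774), Tle4 -0.11 (0.568) and Ssbp4 0.16 (0.191).

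In the Gjd2 gate 7 of 16 were higher, 4 lower and 5 not called, where 23.9% of all genes tested were higher and 24.5% lower (median 2.97e-04, and 3.28e-04 over all genes). The largest were Tle1 (0.81 ± 0.08 SE), Lhx4 (0.58 ± 0.19) and Sox12 (0.39 ± 0.10), and Ldb2 (-0.99 ± 0.09), Lmo2 (-0.93 ± 0.27) and Tle4 (-0.89 ± 0.10). Lhx4 turned to -0.46 in batch 3 alone and to -0.57 without cells of other classes, and Lmo2 to 0.0654 in batch 3 alone, none of them called. With the stricter gate Lmo2 (-0.91) and Lhx4 (0.41) were not called, nor was Lhx4 by DESeq2 (0.39), without the library block (0.69) or without library 2, 4 or 6 (0.43 to 0.51). Against Slc6a9-gate cells only, Tle1 was 0.16 (edgeR adjusted p = 0.196) and Sox12 0.23 (0.254), neither called.

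In the Cdkn1c gate 6 of 17 were higher, 6 lower and 5 not called, where 20.9% of all genes tested were higher and 18% lower (median -0.05, and -2.91e-04 over all genes). The largest were Tle3 (0.56 ± 0.06), Ssbp4 (0.32 ± 0.03) and Ldb1 (0.29 ± 0.05), and Lmo2 (-0.73 ± 0.21), Tle4 (-0.67 ± 0.06) and Ssbp2 (-0.40 ± 0.04). In batch 3 alone Ldb1 (0.12; edgeR adjusted p = 0.404) and Lmo2 (-0.43; 0.359) were not called. Ldb2 was lower in 4 of these 5 comparisons and higher in the Cdkn1c gate (log2 difference 0.21), and Tle4 was higher in the Chat gate and lower in the Slc17a8, Gjd2 and Cdkn1c gates, apart from the class-matched Slc17a8 values above. Between the Fezf1 arms 0 of 9 were higher, 1 (Lmo2) lower and 8 not called.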

How the data were processed

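Single-cell counts of 10 libraries were analysed. The gene that drives the strain's transgene is not reported here. The deposited table holds counts of UMIs per gene and cell, whole numbers and not normalized. It was made with Cell Ranger 2.1.0 on mm10, per the submitters' processing notes. No source used here states the annotation, strand setting, cell filters or any doublet removal. All cells were kept (each had at least 601 genes), and no other normalization was applied before summing. The members and gene lists were chosen with earlier results of these data known.

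Counts were summed per library and gate. A level is the CPM of that sum; a comparison used libraries with at least 10 cells in each arm. Tests were edgeR 4.0.16 quasi-likelihood fits in R 4.3.3 over all genes passing filterByExpr, with TMM scaling, the library as a block (both arms come from the same library), Benjamini-Hochberg adjustment and a threshold of 0.05; the SE is the absolute log2 difference over the square root of F. The fits were tested on simulated data. Intervals are exact binomial at 95% or exact Poisson ratios, and cover counting error only. Thinning drew 2000 UMIs per cell and left out 6279 shallower cells (19.3% of all). Expected co-detection is the product of the 2 shares, summed over libraries. Gate genes were left out of counts of calls. Python 3.11.15, numpy 2.4.6, pandas 2.3.3, scipy 1.17.1 and DESeq2 1.42.0 (an alternative) were also used.

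Named genes are the 9 members; the 3 largest called family genes per direction; the 10 largest called genes per direction between the Fezf1 arms with at least 50 CPM in the higher arm and the same direction in every library; and the 5 genes most like each member with at least 50 CPM in the positive cells and a ratio above 1 in every library. Alternatives were DESeq2, its size factors, no low-count filter, no library block, each batch alone, each library left out, stricter gates, class-matched cells and leaving out cells with markers of other classes; those chosen after seeing the data left out shared barcodes, cells with rarer markers of other classes, or cells of the Chat or Slc17a8 gate, or kept Isl1-positive cells.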

Additional observations from a re-analysis of the deposited data

Results flagged for a closer look

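Of 45 gene and gate groups of 10 libraries tested for a library standing apart, 5 had one; chance flags about 1 in 20 groups. In the Slc6a9 gate, library 1 was highest for Lhx2 at 55.8 CPM (next 32.6 CPM) and for Lhx9 at 27.9 CPM (next 17.1 CPM). In the Cdkn1c gate library 1 was highest for Lmo4 at 461 CPM (next 325 CPM), and library 5 was lowest for Lhx2 at 23.0 CPM (next 32.1 CPM). In the Chat gate library 2 was highest for Lhx2 at 38.9 CPM (next 12.1 CPM). Library 1 is the single library of batch 1 and has the fewest cells (950), so a difference of batch and one of this library cannot be told apart.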

How the results depend on the processing

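Of 1645 values recomputed under alternatives for 89 results, 1554 kept direction and side of the threshold, 64 lost their call, 5 gained one and 22 changed sign. Leaving out single libraries gave 745 of these values, of which 720 held, 24 lost their call and 1 changed sign.

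The number of genes called was 1408 for the Chat gate in batch 3 alone (3966 with all libraries). Without the library block it was 2869 for the Cdkn1c gate (4612 with it); the block pairs arms of the same library, and of the 89 results 85 held and 4 lost their call without it. Between the Fezf1 arms it was 28 with DESeq2, 126 without the low-count filter, 46 in Isl1-positive cells and 47 to 138 with 1 library left out (71 in all 4). With 1 library left out the counts were 6499 to 7045 for Slc6a9 against Gad, 3438 to 4111 for the Chat gate, 2576 to 2976 for the Slc17a8 gate, 5236 to 5676 for the Gjd2 gate and 4214 to 4679 for the Cdkn1c gate.

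Sign changes, as log2 differences: in Slc6a9 against Gad, Lhx2 was -0.0095 with the stricter gate and -1.75 without Slc17a8-gate cells, and Isl1 0.28 without Chat-gate cells. In the Slc17a8 gate, Isl1, not called in the first place, was -0.0363 with DESeq2, -0.0673 without replicate 2 (at most 0.199 without another one), -1.04 without cells with markers of other classes, -1.005 without those with rarer markers and -0.0166 without shared barcodes, and Ssbp4 was 0.16 class-matched. In the Gjd2 gate, class-matched values were 0.21 for Isl1, 1.001 for Lhx9, 0.39 for Lmo4 and 1.83 for Sox5; Sox5 was 0.0729 in batch 2; Lhx4 was -0.46 in batch 3, -0.57 without cells of other classes and -0.15 without those with rarer markers; Lmo2 was 0.0654 in batch 3. In the Cdkn1c gate, Lmo4 was -0.0050 with the stricter gate, and Fezf2 0.12 in batch 3 and 0.11 without cells of other classes. Between the Fezf1 arms Sox2 was -0.0191 in Isl1-positive cells. The cause was not tested in any of these.

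Fezf1 could not be fitted with the stricter gate between its arms or in batch 3, where no library had enough cells. Depth limits Sox6 (124 UMIs) and Fezf1 (164 UMIs), since a cell without a UMI is not shown to lack the gene. Gates overlap, and no cell type was assigned.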
